A study of Mus musculus and Sus scrofa with 30 samples.

Results

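Lipoprotein lipase, its partners and the genes that carry fatty acids into the fat cell were followed in 2 cell systems driven to form fat. The set comprised 10 genes, taken by gene symbol, ignoring case: Lpl, Angptl4, Gpihbp1, Lmf1, Cd36, Fabp3, Fabp4, Fabp5, Slc27a1 and Slc27a4. Each symbol matched 1 gene in the mouse table of 24843 genes and 1 in the pig table of 34307 genes. Mouse Lpl (ENSMUSG00000015568) is listed on chromosome 8 and Cd36 (ENSMUSG00000002944) on chromosome 5, and pig LPL (ENSSSCG00000040631) on chromosome 14 and CD36 (ENSSSCG00000061957) on chromosome 9. The mouse system was 3T3-L1, a line of embryonic fibroblasts that can become fat cells. The pig system was dedifferentiated fat (DFAT) cells, which derive from mature fat cells of subcutaneous fat and grow again as fibroblast-like cells. Both systems had the same 5 groups of 3 libraries, all harvested 5 days into differentiation. The groups received the solvent DMSO (vehicle), the coumarin anticoagulant dicoumarol, the magnolia bark lignan magnolol, both together (dicoumarol plus magnolol, here the combination), or rosiglitazone, a synthetic PPARγ agonist used in diabetes. Every 3T3-L1 group, vehicle included, was induced in 10% serum by dexamethasone at 75 nM, IBMX at 37.5 µM and insulin at 0.75 µg/mL. For every DFAT group the medium held 2% serum, biotin (20 µM), pantothenate (10 µM), IBMX (12.5 µM) and dexamethasone (0.5 µM), with no insulin named. Neither the compounds' doses nor the number of pigs, nor whether replicates were separate cultures, is stated in the labels, so p-values measure the spread between these libraries, which may be technical.

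Lipoprotein lipase is made by fat cells, folded with the help of LMF1 in the endoplasmic reticulum, secreted, and carried by GPIHBP1 to the capillary wall, where it splits the triglycerides of circulating lipoproteins. ANGPTL4 inactivates the enzyme and is itself a target gene of the PPAR receptors. The fatty acids set free enter the cell with the help of the membrane protein CD36 and of fatty acid transport proteins such as FATP1 and FATP4 (Slc27a1 and Slc27a4), and the small fatty acid binding proteins FABP3, FABP4 and FABP5 carry them through the cytoplasm. FABP4 is the classic form of fat cells and FABP3 that of heart and skeletal muscle, and Lpl, Cd36 and Fabp4 are textbook PPARγ target genes.

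Values are the authors' normalized counts, that is gene counts divided by a size factor for each library. The libraries held an estimated 22.8 to 30.7 M (3T3-L1) and 44.8 to 70.5 M (DFAT) counted reads. Genes with a mean of at least 10 were tested with limma on log2(normalized count + 1), a scale that understates changes of low genes, and a gene is said to have risen or fallen where the Benjamini-Hochberg adjusted p was under 0.05. Of the 10 genes, 8 passed that minimum in the mouse table and 9 in the pig table, and each of these also had a vehicle mean above it. A list of 12 fat cell markers moved with the treatments too: of 11 tested in 3T3-L1 cells, 0 rose under dicoumarol, 8 under magnolol, 10 under the combination and 11 under rosiglitazone, and of 10 tested in DFAT cells 5, 6, 8 and 8. Of all tested genes, 0%, 1.07%, 3.86% and 20.3% were called higher in 3T3-L1 cells in that order. In DFAT cells the shares were 0.911%, 2.96%, 6.11% and 5.8%. In 3T3-L1 cells, where Lep alone of the 12 had a mean under 10, their summed level was 11762 to 14657 with vehicle, 15453 to 25123 with dicoumarol, 27019 to 37692 under magnolol, 30566 to 51038 under the combination and 79827 to 115943 with rosiglitazone. In DFAT cells, where 11 of the 12 were listed and RETN was at 0, the 5 ranges in that order were 6761 to 8516, 10193 to 11243, 14671 to 16359, 23682 to 25744 and 28544 to 33216. In such bulk samples, more fat cells and more RNA per fat cell cannot be told apart, and the part of fat cell number in the results was not tested. Markers of endothelial cells, which hold lipoprotein lipase at the vessel wall in the animal, were mostly low: 6 of 7 listed in 3T3-L1 cells (Pecam1, Cdh5, Kdr, Tek, Emcn and Vwf) and 7 of 10 in DFAT cells (CDH5, KDR, TEK, TIE1, EMCN, VWF and CLDN5) had means under 10, with pig KDR at 0. The 10 DFAT markers summed to 2503 to 2672 counts with vehicle and 2995 to 3539 with rosiglitazone. Tested there were PECAM1, FLT1 and ERG, of which 1 rose with rosiglitazone (5.8% of all genes were called higher). In 3T3-L1 cells the 7 summed to 265 to 309 with vehicle and 219 to 262 with rosiglitazone, and the 1 tested was not called. Their part in the results was not tested.

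Promoter sequence from RefSeq (GRCm38.p6) was at hand for 5 of the 10 mouse genes, and 2 are shown because their genes lay at opposite ends of the data: Cd36 rose strongly in 3T3-L1 cells, while Fabp3 stayed near 0 there. The windows are the 250 bases before the listed start, 5′ to 3′ on the gene's strand, at chr5:17835897-17836146 (minus strand) for Cd36, the 1 start the table lists, and chr4:130308488-130308737 (plus strand) for Fabp3. Capitals mark matches, on either strand, to 6 motifs: the nuclear receptor half-site AGGTCA, a direct repeat of that half-site with 1 base of any kind between (DR1, the type of site bound by PPARγ with its partner RXR, which contains the half-site), the CCAAT box, the GC box, which reads GGGCGG, the TATA box, which reads TATAAA, and the C/EBP type site TTGCNNAA.
Cd36: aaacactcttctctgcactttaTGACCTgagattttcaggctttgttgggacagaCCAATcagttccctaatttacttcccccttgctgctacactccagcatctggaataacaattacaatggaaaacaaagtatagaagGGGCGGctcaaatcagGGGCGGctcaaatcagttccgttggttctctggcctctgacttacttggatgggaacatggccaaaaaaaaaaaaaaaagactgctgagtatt
Fabp3: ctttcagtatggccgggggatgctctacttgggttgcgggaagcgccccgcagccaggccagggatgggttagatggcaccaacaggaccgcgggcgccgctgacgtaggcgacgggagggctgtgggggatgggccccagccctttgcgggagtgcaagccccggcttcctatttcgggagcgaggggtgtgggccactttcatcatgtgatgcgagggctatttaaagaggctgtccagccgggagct
Counted back from the start, the Cd36 window held the half-site on the minus strand at position −228, CCAAT at −195 and GC boxes at −109 and −93. The Fabp3 window held none of the 6 motifs, which says only that these letters are not in it. Over all 32536 windows of the table the half-site occurred in 14.0%, the direct repeat in 0.0338%, CCAAT in 33.8%, the GC box in 33.0%, TATAAA in 12.3% and the C/EBP type site in 9.57%, so the matches in the Cd36 window are common ones. The other 3 genes with windows were Lmf1, Slc27a1 (3 starts) and Slc27a4, and Lpl, Angptl4, Gpihbp1, Fabp4 and Fabp5 had no entry.

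Lpl, the lipase itself, was raised by the combination and by rosiglitazone in 3T3-L1 cells. Its normalized counts were 53196, 39958 and 38886 with vehicle, 73587, 55043 and 49177 with dicoumarol and 90202, 69342 and 59614 with magnolol. They were 117594, 79244 and 75668 with the combination and 263807, 154183 and 166200.0 with rosiglitazone. All 3 rosiglitazone libraries lay above every other library, the magnolol and combination libraries lay above all vehicle libraries but overlapped each other, and the dicoumarol libraries overlapped vehicle. Replicate 1 was the highest library in each of the 5 groups. Rosiglitazone raised Lpl 4.34-fold (log2 fold change 2.12, SE 0.23, limma adjusted p 5.0e-06), from a mean of 0.166% to 0.694% of a library's reads. The combination raised it 2.04-fold (limma adjusted p 0.0162), which did not pass when vehicle library 2 (0.063), vehicle library 3 (0.0654) or combination library 1 (0.116) was left out. With magnolol the log2 fold change was 0.72 (limma adjusted p 0.206, or 2.3e-04 with the replicate number as a block) and with dicoumarol 0.42 (0.9998).

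Porcine LPL was called higher with the same compounds and, in the fit used, also with magnolol alone. The magnolol estimate was no larger than in 3T3-L1 cells (log2 fold changes 0.65 and 0.72). There it missed the threshold in the fit used but passed it with the replicate block (limma adjusted p 2.3e-04), so the extra pig call is no difference between the systems. The systems were not compared by a test. Counts were 15527, 14288 and 17096 with vehicle and 17152, 15932 and 16627 with dicoumarol. They were 21237, 25556 and 26909.7 with magnolol, 34187, 31990.3 and 34945 with the combination and 40728, 40073 and 41842 with rosiglitazone. Vehicle and dicoumarol libraries overlapped, and above them the other 3 groups formed steps without overlap. The changes against vehicle were 1.57-fold with magnolol (limma adjusted p 8.2e-05), 2.16-fold with the combination (5.7e-08) and 2.62-fold with rosiglitazone (2.2e-09), each with an SE of 0.08 on the log2 scale. Dicoumarol gave a log2 fold change of 0.09 (limma adjusted p 0.813).

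Angptl4, the secreted inhibitor of the lipase, rose further than Lpl did under rosiglitazone in both systems by point estimate, a difference that was not tested. In 3T3-L1 cells its counts were 1384, 1203 and 1353 with vehicle, 2374, 2130.1 and 1865 with dicoumarol and 2891, 2789 and 2135 with magnolol. They were 4262, 3782 and 2984 with the combination and 11133, 7872 and 8412 with rosiglitazone. The dicoumarol and magnolol libraries overlapped each other, and all other neighbouring groups were separate. Rosiglitazone raised it 6.89-fold (log2 fold change 2.78, SE 0.15, limma adjusted p 2.4e-08), the combination 2.77-fold (1.2e-04) and magnolol 1.97-fold (0.00833, or 0.0578 without magnolol replicate 1). With dicoumarol the log2 fold change was 0.69 and missed the threshold (limma adjusted p 0.907), but passed it with the replicate block (0.00352).

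In DFAT cells ANGPTL4 responded to the combination and to rosiglitazone. Vehicle libraries held 2521, 2476 and 1742 counts, dicoumarol libraries 2130.3, 2162 and 1782 and magnolol libraries 2327, 2631 and 2076. Combination libraries held 3529, 3439.7 and 2744 and rosiglitazone libraries 10068, 8017 and 7139. The first 3 groups overlapped, the combination stood just above them and rosiglitazone far above, and replicate 3 was the lowest library in all 5 groups. Rosiglitazone raised ANGPTL4 3.75-fold (limma adjusted p 7.1e-08). The combination raised it 1.45-fold (log2 fold change 0.54, SE 0.15, limma adjusted p 0.0255), not called when any of these was left out or off: vehicle replicate 3 (0.137), combination replicate 1 (0.102) or combination replicate 2 (0.0858), the filter on low values (0.188) or the variance trend (0.0767). The log2 fold changes with dicoumarol and magnolol were −0.14 and 0.07 (limma adjusted p 0.844 for both).

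The maturation factor of the lipase moved little, and its capillary carrier was all but absent. Mouse Lmf1 ranged from 454 to 631 normalized counts with vehicle and from 616 to 786 with rosiglitazone, so the groups overlapped. The log2 fold change of 0.35 (SE 0.12) passed the test (limma adjusted p 0.0353), but it did not without vehicle replicate 1 (0.0696), vehicle replicate 2 (0.176) or rosiglitazone replicate 1 (0.165), without the filter on low values (0.0505), with quantile normalization (0.0660) or with the 2 groups fitted alone (0.114). The other 3 treatments gave mouse Lmf1 log2 fold changes of −0.01 to 0.10, none of which passed. Pig LMF1 lay between 1031 and 1362 in all 15 libraries, with log2 fold changes of −0.06 to 0.07 against vehicle and no call. Gpihbp1 was listed at 0 to 8.14 counts in 3T3-L1 libraries and at 0 in all 15 DFAT libraries, where 3 reads correspond to 2.57 to 3.70 and 2.54 to 3.84 normalized counts. It was therefore not tested, and a level below that of a few reads would not have been detectable.

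**Figure D1:**
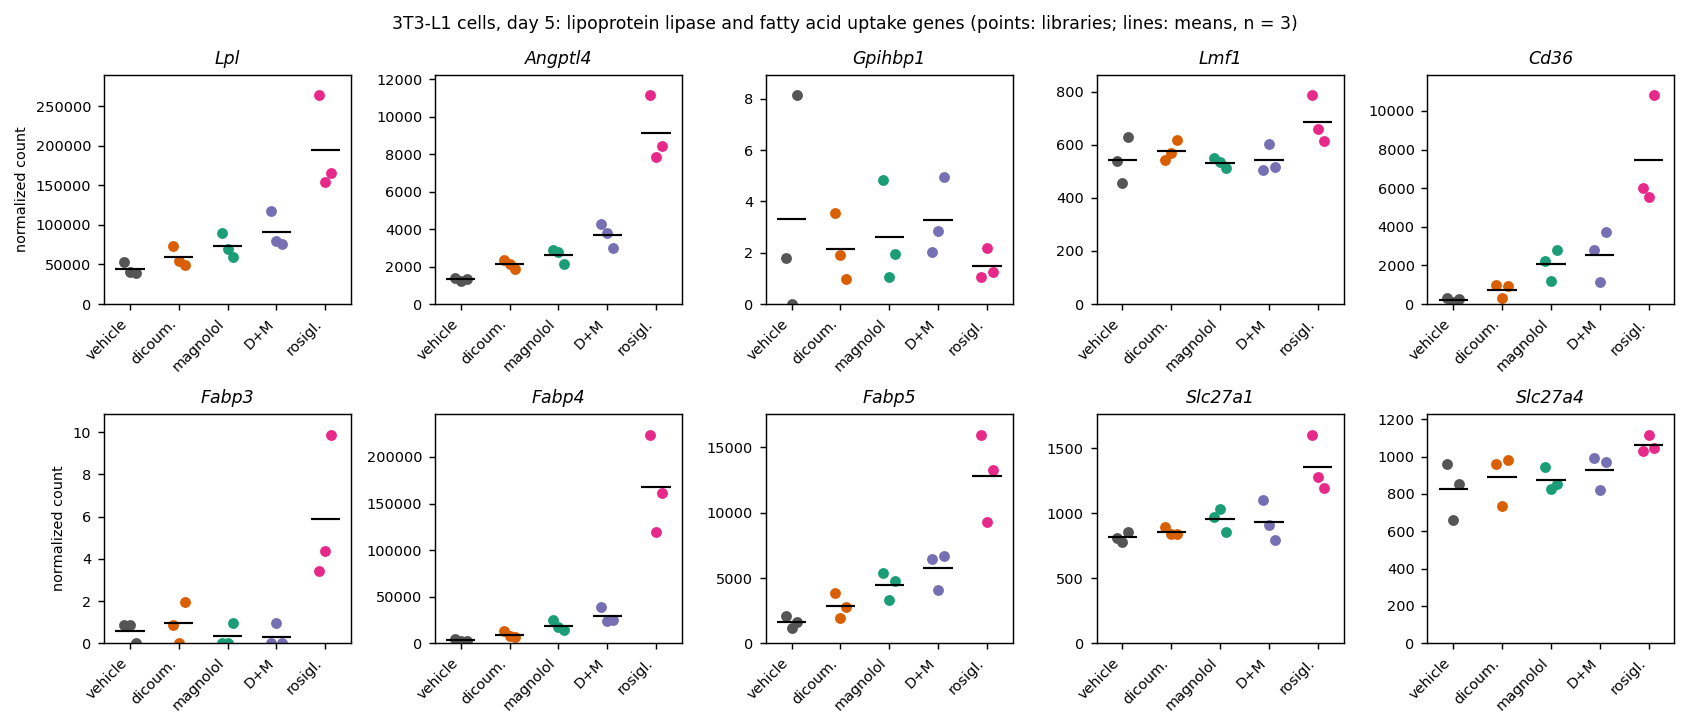
Normalized counts of the 10 genes in 3T3-L1 cells (vertical axes, each from 0) for the 5 groups (horizontal axes; D+M is the combination). Points are libraries and lines are means of 3. Lpl, Angptl4, Cd36, Fabp4 and Fabp5 stand highest in the 3 rosiglitazone libraries, whereas Gpihbp1 and Fabp3 stay below 10 counts in all 15 libraries.

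Cd36, the membrane receptor and facilitator of long-chain fatty acid uptake, had a larger point estimate than every other tested mouse gene of the set under dicoumarol, magnolol and the combination, and under rosiglitazone was second to Fabp4, differences that were not tested. Its counts were 335, 129 and 238 with vehicle, 967, 292 and 922 with dicoumarol and 2252, 1187 and 2811 with magnolol. They were 2796, 1162 and 3718 with the combination and 6005, 5555 and 10806 with rosiglitazone. Replicate 2 was the lowest library in every group, the magnolol and combination libraries overlapped, and both lay above vehicle and dicoumarol. The SE of 0.50 on the log2 scale was the largest among the tested mouse genes of the set. Magnolol raised Cd36 8.96-fold (limma adjusted p 0.00833, or 0.0516 without magnolol replicate 1). The combination raised it 10.5-fold (0.00115) and rosiglitazone 32.5-fold (2.0e-06). The dicoumarol libraries overlapped vehicle, with a log2 fold change of 1.55 (limma adjusted p 0.9998, or 0.00232 with the replicate block).

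In DFAT cells CD36 rose with all 4 treatments, dicoumarol included. Vehicle libraries held 1901, 1787 and 1785 counts, dicoumarol libraries 3931, 3513 and 3466 and magnolol libraries 7839.9, 9086 and 9453. Combination libraries held 13993, 12045 and 15809 and rosiglitazone libraries 18533, 15313 and 19226. The groups formed steps without overlap up to the combination, whose highest library exceeded the lowest rosiglitazone library. CD36 rose 1.99-fold under dicoumarol (limma adjusted p 1.6e-05), 4.80-fold under magnolol (1.0e-10), 7.60-fold under the combination (1.8e-12) and 9.65-fold with rosiglitazone (2.8e-13), with an SE of 0.10 on the log2 scale.

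Of the fatty acid binding proteins, Fabp4 and Fabp5 were tested in both systems and Fabp3 in the pig cells alone. Fabp4, the fat cell form, had 4942, 2489 and 2627 counts in 3T3-L1 cells with vehicle, 13517, 7866 and 6604 with dicoumarol and 24975, 17419.9 and 13819.6 with magnolol. The combination libraries held 38660.1, 24082 and 25156 and the rosiglitazone libraries 223878, 119470.0 and 161477. Groups were separate at each step except between magnolol and the combination. Rosiglitazone raised Fabp4 51.1-fold (log2 fold change 5.68, SE 0.32, limma adjusted p 2.4e-08), to a mean of 0.599% of a library's reads from 0.0126% with vehicle. The combination raised it 8.98-fold (limma adjusted p 7.6e-05) and magnolol 5.71-fold (0.00142). With dicoumarol all 3 libraries lay above vehicle, but the log2 fold change of 1.48 did not pass (limma adjusted p 0.907) except with the replicate block (2.8e-05).

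Porcine FABP4 rose under all 4 treatments. Its counts were 673, 501 and 779 with vehicle, 921, 1114 and 1154 with dicoumarol and 1684, 1679 and 1789 with magnolol. They were 3871, 3610.4 and 3727 with the combination and 7975, 8167 and 8134 with rosiglitazone, and no neighbouring groups overlapped. The increases were 1.65-fold with dicoumarol (limma adjusted p 0.00185, or 0.0556 with no filter on low values), 2.68-fold with magnolol (5.4e-07), 5.83-fold with the combination (8.8e-11) and 12.6-fold with rosiglitazone (3.7e-13).

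FABP3, the heart and muscle form, rose with all 4 treatments in the pig cells and was near 0 in the mouse cells. In DFAT cells the counts were 1138, 941 and 1052 with vehicle, 2496, 2198 and 2013 with dicoumarol and 4354, 4789.5 and 5003 with magnolol. They reached 9956, 8401 and 10312 with the combination and 15372, 10744 and 15303 with rosiglitazone, again without overlap between neighbouring groups. The increases were 2.14-fold with dicoumarol (limma adjusted p 5.0e-05), 4.52-fold under magnolol (3.1e-09), 9.14-fold with the combination (8.2e-12) and 13.1-fold with rosiglitazone (6.1e-13). Mouse Fabp3 was listed at 0 in 6 of 15 libraries and at no more than 1.95 in any vehicle, dicoumarol, magnolol or combination library, and at 3.41, 4.35 and 9.88 with rosiglitazone. These are a few reads per library, so no test was made and no fold is given. Of the stretches of 50 bases in the mouse Fabp3 transcripts (GENCODE), 37.3% also occur in other genes, mainly the pseudogene Fabp3-ps1 (29.2%), and the rest are its own. Fabp3-ps1 was listed at 0 to 4.98 counts, and reads left out of the counting as shared would show in neither gene. The part of shared reads in the low mouse Fabp3 value was not tested. Of 8 skeletal muscle markers in DFAT cells, MYOD1, MYOG, CKM, MYH1, MYH3 and TNNT3 had means under 10. The 8 summed to 135 to 154 with vehicle, 195 to 211 under dicoumarol, 179 to 271 under magnolol, 258 to 311 under the combination and 146 to 234 under rosiglitazone, where FABP3 was highest. The 2 tested muscle markers, the actin ACTA1 and the filament protein DES, both rose with the combination (log2 fold changes 0.59 and 1.81, limma adjusted p 0.0331 and 0.00463), where 6.11% of all genes were called higher. Neither was called under the other 3 treatments, under which FABP3 rose as well. The part of these markers in the result was not tested. The tables were scaled separately, so no test was made between the systems.

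Fabp5, the epidermal form that also occurs in fat cells, followed the same order with smaller steps. The 3T3-L1 counts were 2119, 1178 and 1665 with vehicle, 3886, 1940.0 and 2779 with dicoumarol and 5352, 3318 and 4774 with magnolol. They were 6481, 4068 and 6694 with the combination and 15971, 9297 and 13253 with rosiglitazone. Rosiglitazone libraries lay above all others, the other neighbouring groups overlapped, and replicate 2 was the lowest in every group. Fabp5 rose 7.79-fold with rosiglitazone (log2 SE 0.28, limma adjusted p 1.2e-06) and 3.49-fold with the combination (0.00151). The 2.73-fold rise with magnolol (limma adjusted p 0.0187) did not pass without vehicle replicate 2 (0.0868), vehicle replicate 3 (0.0576), magnolol replicate 1 (0.118), magnolol replicate 3 (0.0908) or the variance trend (0.0659). For dicoumarol the log2 fold change was 0.78 (limma adjusted p 0.9998, or 2.3e-04 with the replicate block). Only 5.48% of the 50-base stretches of the mouse Fabp5 transcripts recur elsewhere, yet 2 of its processed pseudogenes were listed at high levels, Gm6166 at 367 to 4656 counts and Gm14328 at 128 to 1699, so the mouse Fabp5 level is uncertain where the counting could split shared reads.

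Pig FABP5 rose with magnolol, the combination and rosiglitazone. Counts were 492, 468 and 574 with vehicle, 581, 572 and 662 with dicoumarol and 676, 691 and 733 with magnolol. They were 1052, 888 and 1093 with the combination and 1548, 1502 and 1543 with rosiglitazone. The dicoumarol group overlapped vehicle and the higher groups were separate. The increases were 1.37-fold (limma adjusted p 0.00604), 1.97-fold (1.4e-06) and 3.00-fold (1.9e-09), and 1.19-fold with dicoumarol did not pass (0.291). No pig transcripts were at hand to look for shared stretches.

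**Figure D2:**
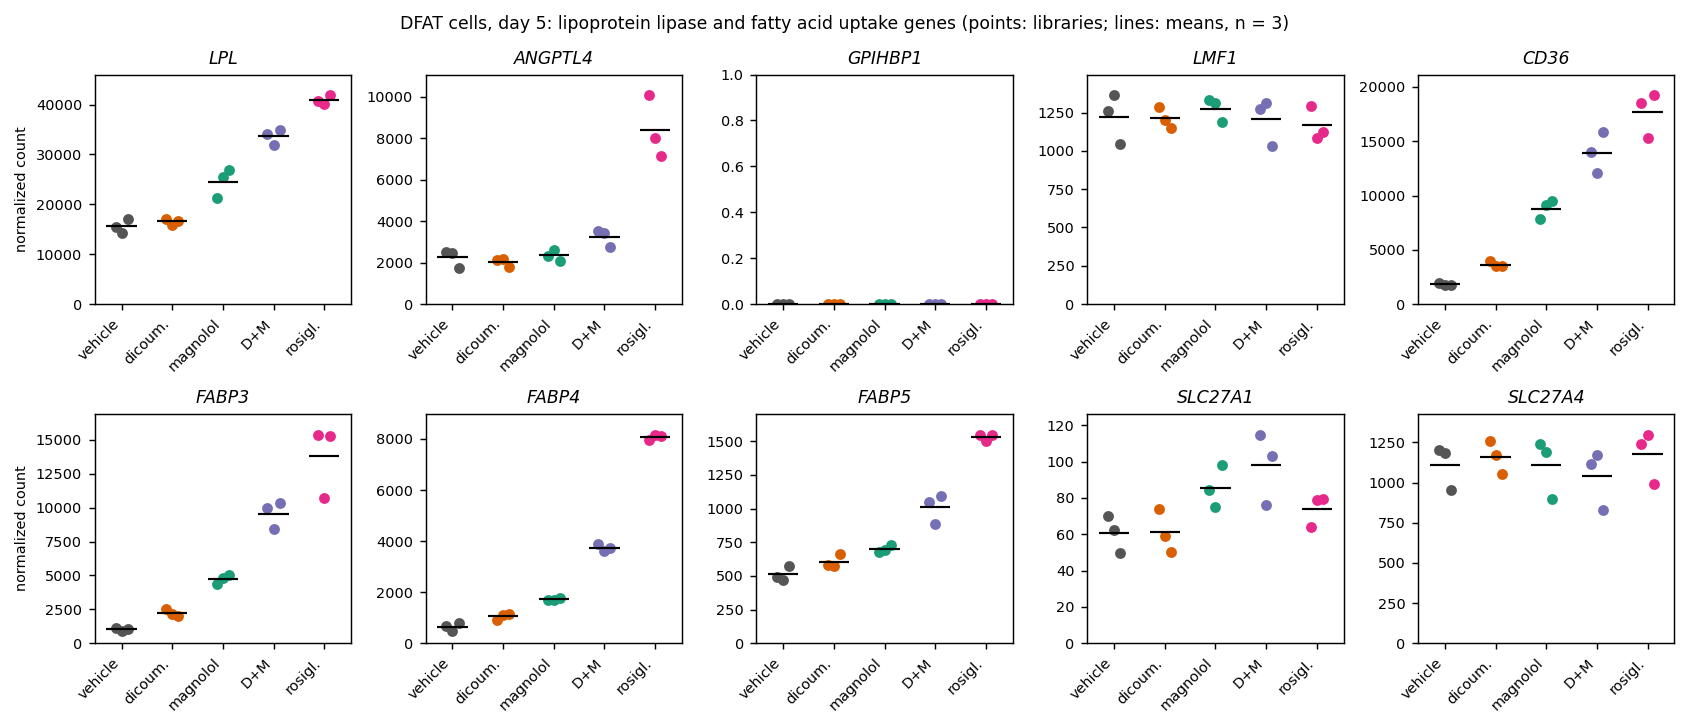
Normalized counts of the 10 genes in DFAT cells (vertical axes, each from 0) for the 5 groups (horizontal axes; D+M is the combination). Points are libraries and lines are means of 3. FABP3, FABP4 and CD36 climb from vehicle through dicoumarol, magnolol and the combination to rosiglitazone, and GPIHBP1 is at 0 throughout.

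The 2 fatty acid transport proteins, which couple uptake to activation with coenzyme A, had smaller rosiglitazone changes by point estimate than Cd36 and the tested binding proteins of the set in each system. Slc27a1 (FATP1) in 3T3-L1 cells had counts of 809, 782 and 853 with vehicle and 1604, 1277 and 1195 with rosiglitazone, which did not overlap. It rose 1.65-fold (log2 SE 0.12, limma adjusted p 2.7e-04), and the other 3 treatments gave log2 fold changes of 0.08 to 0.22 without a call. Slc27a4 (FATP4) had counts of 958, 659 and 854 with vehicle and 1029, 1117 and 1047 with rosiglitazone. Its 1.31-fold rise (log2 SE 0.14, limma adjusted p 0.0344) did not pass without vehicle replicate 2 (0.188) or any 1 of the 3 rosiglitazone libraries (0.0577, 0.0842 and 0.0634), without the filter (0.0529), without the variance trend (0.0549) or with the 2 groups fitted alone (0.0711).

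In DFAT cells SLC27A1 was a low gene. Its counts were 70.2, 62.6 and 49.9 with vehicle, 115, 76.0 and 103 with the combination and 64.1, 78.8 and 79.4 with rosiglitazone, so 2 combination libraries were the highest. It rose 1.59-fold with the combination (log2 SE 0.20, limma adjusted p 0.0405), and not with rosiglitazone (log2 fold change 0.29, 0.47). Rosiglitazone against the combination gave −0.38 (0.213), so the 2 treatments were not shown to differ. The call for the combination did not hold without the vehicle library of replicate 2 (0.07) or 3 (0.165), combination replicate 1 (0.162) or combination replicate 3 (0.124), without the filter (0.125), with quantile normalization (0.0916) or with the 2 groups fitted alone (0.0632). SLC27A4 ranged from 829 to 1298 over all 15 libraries, with log2 fold changes of −0.10 to 0.08 against vehicle and no call.

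**Figure D3:**
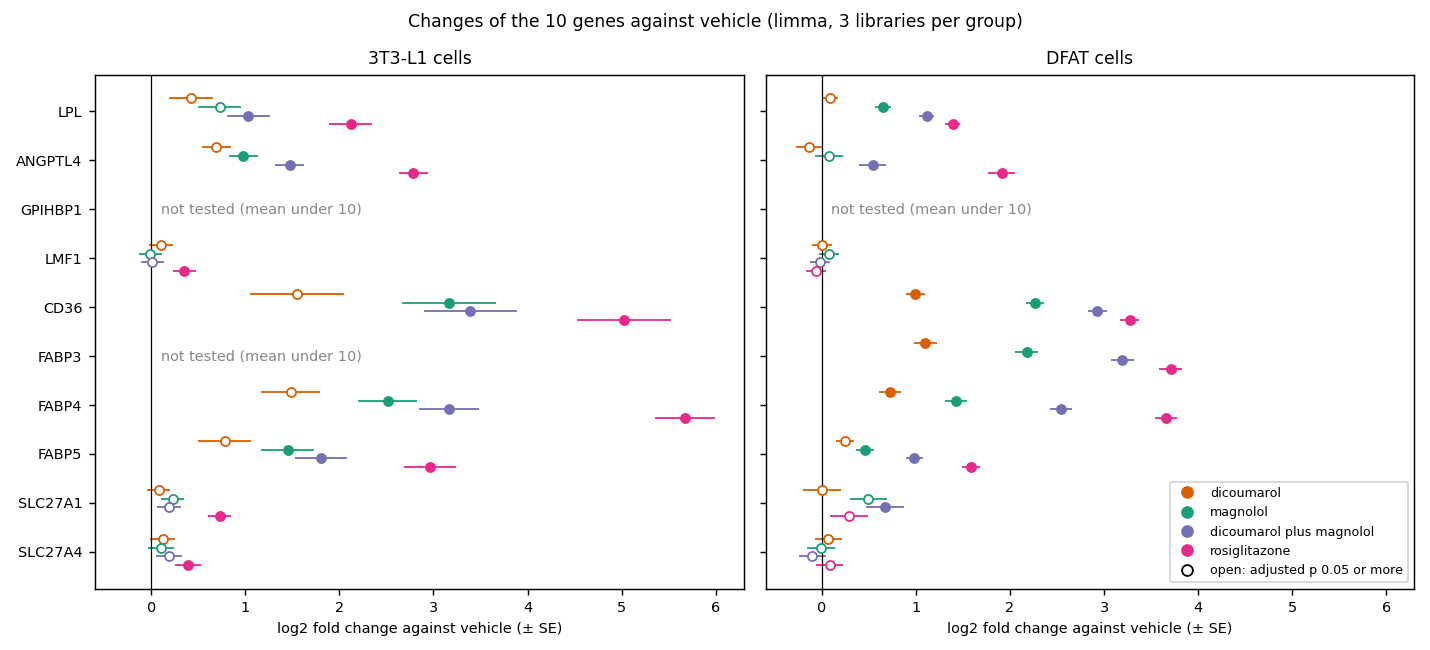
Log2 fold change against vehicle on the log2(normalized count + 1) scale (horizontal axes, ± limma's SE) for the 10 genes (vertical axis) in 3T3-L1 (left) and DFAT cells (right). Filled points passed an adjusted p of 0.05 and open points did not. No gene of the set fell, and the bars of DFAT cells are shorter than those of 3T3-L1 cells for CD36, with SEs of 0.10 and 0.50.

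Counted over the set, no gene fell in any of the comparisons. In 3T3-L1 cells dicoumarol raised 0 of the 8 tested genes, where 0% of all tested genes were called (393 had an unadjusted p under 0.05), and 4 of the 8 with the replicate block, which called 79 of the 15723 genes tested. Magnolol raised 4 (Angptl4, Cd36, Fabp4 and Fabp5; 1.07% of all genes were called higher), the combination 5 (the same and Lpl; 3.86%) and rosiglitazone all 8 tested (20.3%). Their median log2 fold changes were 0.56, 0.85, 1.25 and 2.45 in the same order, and the median over all tested genes lay within 0.011 of 0 in every comparison. In DFAT cells dicoumarol raised 3 of 9 tested genes (CD36, FABP3 and FABP4; 0.911% of all genes were called higher), magnolol 5 (these with LPL and FABP5; 2.96%), the combination 7 (these with ANGPTL4 and SLC27A1; 6.11%) and rosiglitazone 6 (these without SLC27A1; 5.8%). The medians there were 0.09, 0.49, 0.98 and 1.59.

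The combination was next compared with its single agents. In DFAT cells 6 of 9 tested genes were higher with the combination than with dicoumarol (LPL, ANGPTL4, CD36, FABP3, FABP4 and FABP5; 2% of all genes were called higher), the largest difference being 4.27-fold for FABP3 (limma adjusted p 7.0e-09). The ANGPTL4 difference of 1.59-fold (0.0178) was lost without dicoumarol replicate 1 (0.0522) or 3 (0.11), combination replicate 1 (0.0865) or 2 (0.0684), the filter (0.211) or the variance trend (0.0841). Against magnolol alone, 5 were higher (0.385% of all genes): FABP4 2.17-fold (limma adjusted p 7.6e-05), FABP3 2.02-fold (3.5e-04), CD36 1.58-fold (0.00264), FABP5 1.44-fold (0.0101) and LPL 1.38-fold (0.0104). The LPL and FABP5 calls were lost without magnolol replicate 1 (0.0653 and 0.0665), combination replicate 1 (0.0601 and 0.0666) or combination replicate 3 (0.0518 and 0.0586), without the filter (0.115 and 0.0936) or with the 2 groups fitted alone (0.0940 and 0.0615), and LPL also without the variance trend (0.0527). CD36 did not pass without the filter (0.0936). ANGPTL4 passed against magnolol only with the replicate block (log2 fold change 0.46, 0.291 without it and 0.00264 with it).

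In 3T3-L1 cells no gene of the set passed in either comparison with a single agent, where 0.0254% (dicoumarol) and 0% (magnolol) of all genes were called higher. Against dicoumarol the log2 differences were 1.84 for Cd36, 1.69 for Fabp4, 1.02 for Fabp5, 0.78 for Angptl4 and 0.61 for Lpl, with limma adjusted p from 0.0976 to 0.432. The libraries of the 2 groups did not overlap for these 5 genes (7.87% of all genes had no overlap in that direction). With the replicate block all 5 passed (limma adjusted p 1.5e-04, 8.7e-07, 3.9e-06, 3.3e-04 and 0.00201 in that order), where the block called 569 of the 15723 genes tested in either direction. Fabp4 also passed with quantile normalization (0.0469) and without combination replicate 2 (0.0494). Against magnolol the largest log2 difference was 0.65 for Fabp4 (SE 0.32, limma adjusted p 0.9999). Over all genes 336 had an unadjusted p under 0.05 there, and with the block 0 were called as well.

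The interaction asked whether the combined change differed from the sum of the single changes on the log2 scale. No gene of the set passed in either system, where 0% and 0.081% of all genes were called. In DFAT cells the estimates were 0.38 for LPL (SE 0.12, limma adjusted p 0.699), 0.60 for ANGPTL4 (SE 0.21, 0.833) and −0.33 for CD36 (SE 0.14, adjusted p 1). In 3T3-L1 cells the widest estimate was −1.32 for Cd36, with an SE of 0.70 in the fit without the replicate block, so departures from a sum of that order would not have been detectable in that fit. With the block, 0 of all genes were called there as well.

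Rosiglitazone against the combination gave 6 higher genes in each system. In 3T3-L1 cells these were Lpl, Angptl4, Cd36, Fabp4, Fabp5 and Slc27a1, where 9.53% of all genes were called higher. Fabp4 differed by 5.69-fold (limma adjusted p 5.1e-04), Angptl4 by 2.48-fold (4.6e-04) and Lpl by 2.12-fold (0.00615), the last falling to a log2 difference of 0.68 (0.0403) from 1.09 with quantile normalization. Cd36 (3.10-fold, 0.0332) did not pass without combination replicate 1 (0.0556) or 2 (0.139), rosiglitazone replicate 1 (0.0750) or 3 (0.111), the filter (0.0612) or the variance trend (0.0670). Fabp5 (2.23-fold, 0.0111) did not pass without combination replicate 2 (0.0543) or rosiglitazone replicate 1 (0.0634), nor Slc27a1 (1.45-fold, 0.00901) without rosiglitazone replicate 1 (0.0527) or with the 2 groups fitted alone (0.0515). Lmf1 passed only with the replicate block (0.0684 without it, 0.041 with it).

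In DFAT cells the 6 genes higher with rosiglitazone than with the combination were LPL, ANGPTL4, CD36, FABP3, FABP4 and FABP5, where 8.24% of all genes were called higher. ANGPTL4 differed most, 2.59-fold (limma adjusted p 5.2e-06), followed by FABP4 at 2.17-fold (3.8e-06), FABP5 at 1.52-fold (1.8e-04) and FABP3 at 1.43-fold (0.00715, or 0.0782 without the filter). CD36 (1.27-fold, 0.024) and LPL (1.21-fold, 0.0255) differed least. The CD36 call was lost without combination replicate 1 (0.0567) or 2 (0.123), rosiglitazone replicate 1 (0.0704) or 3 (0.1004), the filter (0.144), the variance trend (0.0616) or the other groups in the fit (0.0961). The LPL call was lost without combination replicate 1 (0.0554) or 2 (0.0950), rosiglitazone replicate 3 (0.0763), the filter (0.111) or the variance trend (0.0527). SLC27A4 passed only with the replicate block (log2 difference 0.18, 0.439 without it and 0.0401 with it).

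Set against the rosiglitazone effect on the log2 scale, the other treatments reached different shares of it from gene to gene. These shares are descriptions without an error, since both changes share the vehicle libraries, and are given for the genes called with both the combination and rosiglitazone in a system. In 3T3-L1 cells the combination reached 48.7% for Lpl, 52.8% for Angptl4, 55.8% for Fabp4, 60.9% for Fabp5 and 67.5% for Cd36. In DFAT cells the spread was wider, with 28.2% for ANGPTL4, 61.9% for FABP5, 69.5% for FABP4, 79.9% for LPL, 86.1% for FABP3 and 89.5% for CD36. Among these genes the inhibitor ANGPTL4 had the lowest share in DFAT cells and CD36 the highest in both systems. Magnolol alone reached 3.9% for ANGPTL4, 46.6% for LPL and 69.2% for CD36 in DFAT cells, and 35.1%, 34.2% and 63.0% in 3T3-L1 cells.

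Around the lipase, 20 further genes of lipoprotein handling were examined. In 3T3-L1 cells 13 were tested, of which 6 rose and 6 fell with rosiglitazone (20.3% and 19.9% of all genes were called higher and lower), with a median log2 fold change of −0.29. Among the 13 was Lipg, which passed the minimum mean only through its treated libraries. Scarb1, the HDL receptor, rose by 2.63 on the log2 scale (limma adjusted p 2.4e-08), from 271 ± 26.4 to 1679 ± 81.6 counts (SD, n = 3). Sort1, a sorting receptor that binds the lipase, rose by 2.25 (9.4e-07), and Apoe, a ligand for remnant receptors, by 1.14 (0.00225). The remnant receptors Lrp1 and Vldlr had log2 fold changes of −1.06 and −0.88 (limma adjusted p 1.8e-04 and 1.1e-04), and Furin, a protease that cleaves the lipase and its ANGPTL inhibitors, −0.61 (0.00151), all 3 lower. Magnolol and the combination raised 2 of the 13, Scarb1 and Sort1, by 1.22 and 1.17 with magnolol (limma adjusted p 0.00122 and 0.0113) and by 1.48 and 1.38 with the combination, and lowered none. The Sort1 call with magnolol was lost without vehicle replicate 2 (0.0503) or 3 (0.0523) or magnolol replicate 1 (0.0788) or 3 (0.0573). Dicoumarol changed 0 of the 13. Over all genes, 3.86% were called higher and 1.36% lower with the combination, 1.07% and 0.153% with magnolol, and 0% either way with dicoumarol.

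The pig counterparts did not follow one direction. Of 13 tested, 0 rose and 2 fell with dicoumarol, 3 rose and 0 fell with magnolol, 4 rose and 2 fell with the combination, and 3 rose and 2 fell with rosiglitazone, where 0.911%, 2.96%, 6.11% and 5.8% of all genes were called higher and 1.03%, 1.27%, 4.06% and 5.02% lower in that order. APOE rose by 1.15, 1.60 and 2.13 with the last 3 treatments (limma adjusted p 0.00174, or 0.0520 without the filter, 2.9e-05 and 8.9e-07). HSPG2, which encodes the heparan sulfate proteoglycan perlecan, rose by 0.66 with magnolol and 0.70 with the combination (limma adjusted p 6.7e-04 and 1.5e-04), sizes that were 0.43 and 0.44 with quantile normalization, while rosiglitazone gave −0.13 (0.528). VLDLR rose by 0.34 under the combination and 0.45 under rosiglitazone (limma adjusted p 0.00503 and 3.7e-04), and LIPA, the lysosomal acid lipase, by 0.26 and 0.53 (0.042 and 1.3e-04). The LIPA call with the combination falls outside the naming rule, and whether it holds under the alternatives was not examined. The VLDLR rise of 0.30 with magnolol (limma adjusted p 0.0264) did not pass without vehicle replicate 2 (0.102) or 3 (0.0701), magnolol replicate 1 (0.0739) or 3 (0.139), the filter (0.114), the variance trend (0.0638) or the other groups in the fit (0.0515). Endothelial lipase, LIPG, stood at 130849 ± 14283 counts with vehicle and 93438 ± 4348 with rosiglitazone (SD, n = 3), a log2 fold change of −0.48 (limma adjusted p 0.00184). Its fall with the combination, −0.35 (0.021), did not pass without vehicle replicate 1 (0.116) or 2 (0.0519), combination replicate 1 (0.0615) or 2 (0.0710), the filter (0.1225) or the other groups in the fit (0.0511), and was larger with quantile normalization (−0.54, 2.9e-04). Mouse Lipg stood at 3.79 ± 0.577 and 26.4 ± 18.9 counts in the same groups. The convertase PCSK5 had log2 fold changes of −0.39 under dicoumarol, −0.26 under the combination and −0.28 under rosiglitazone (limma adjusted p 0.0125, 0.0451 and 0.0269), and the syndecan SDC1 −0.30 with dicoumarol (0.0297). None of these 4 falls passed without vehicle replicate 1 (0.0909, 0.196, 0.141 and 0.1145) or without the filter (0.1065, 0.171, 0.124 and 0.109).

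Among 24 further genes of fatty acid uptake and activation, Acsl1 stood out in the mouse cells. This long-chain acyl-CoA synthetase, which traps fatty acids inside the fat cell, averaged 2112 ± 761 counts with vehicle, 10109 ± 2561 under magnolol, 12991 ± 5323 under the combination and 35644 ± 5333 under rosiglitazone (SD, n = 3). Its log2 fold changes were 2.28, 2.59 and 4.12 in the 3 treated groups (limma adjusted p 0.00692, 7.2e-04 and 4.3e-07). Of 13 tested mouse genes, 0 rose under dicoumarol, 1 under magnolol, 2 under the combination and 4 under rosiglitazone, and 2 fell, both under rosiglitazone (over all genes, 0%, 1.07%, 3.86% and 20.3% were called higher in that order, and 19.9% lower with rosiglitazone). The other rises with rosiglitazone were Dbi, an acyl-CoA binding protein (1.74, limma adjusted p 6.0e-06), Got2, a mitochondrial transaminase also described at the cell surface as a fatty acid binding protein (0.23, 0.0354, named after its values were seen), and Cavin1, a coat protein of caveolae (0.38, 0.00715, or 0.0610 with the 2 groups fitted alone). Dbi was the other gene higher with the combination (0.82, limma adjusted p 0.0223), not passing without vehicle replicate 2 (0.0970), combination replicate 1 (0.116) or 3 (0.0784) or the variance trend (0.0579). The falls were the kinase Fyn (−0.59, limma adjusted p 0.00186) and the synthetase Acsl4 (−0.58, 0.0294), the latter not passing without vehicle replicate 2 (0.177), rosiglitazone replicate 1 (0.154) or 3 (0.0605), the filter (0.0504), the variance trend (0.0556) or the other groups in the fit (0.0917).

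In DFAT cells 15 of the 24 were tested, of which 0 changed with dicoumarol, 2 rose with magnolol, 3 rose and 1 fell with the combination, and 6 rose with rosiglitazone. Over all genes 2.96%, 6.11% and 5.8% were called higher in the last 3 comparisons, and 4.06% lower with the combination. On the log2 scale ACSL1 rose by 0.32 under magnolol, 0.81 under the combination and 1.12 under rosiglitazone (limma adjusted p 0.00355, 5.3e-08 and 5.0e-10). DBI rose by 0.48 and 0.73 with the last 2 treatments (limma adjusted p 4.4e-04 and 3.7e-06) and CAVIN1 by 0.29, 0.26 and 0.29 with magnolol, the combination and rosiglitazone (0.00499, 0.00493 and 0.00182, the last 0.0502 with the 2 groups fitted alone). FYN fell by 0.22 with the combination (limma adjusted p 0.0289), but not without vehicle replicate 1 (0.113) or 3 (0.104), combination replicate 1 (0.0774) or 2 (0.102), the filter (0.0710), the variance trend (0.0550) or the other groups in the fit (0.0705). Another fatty acid transport protein, SLC27A2 (FATP2), was chosen after its values were seen. It averaged 37.1 ± 7.59 counts with vehicle, 32.2 ± 8.83 under magnolol, 58.7 ± 11.3 under the combination and 189 ± 5.29 under rosiglitazone (SD, n = 3), where it rose by 2.34 (limma adjusted p 9.8e-07).

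**Figure D4:**
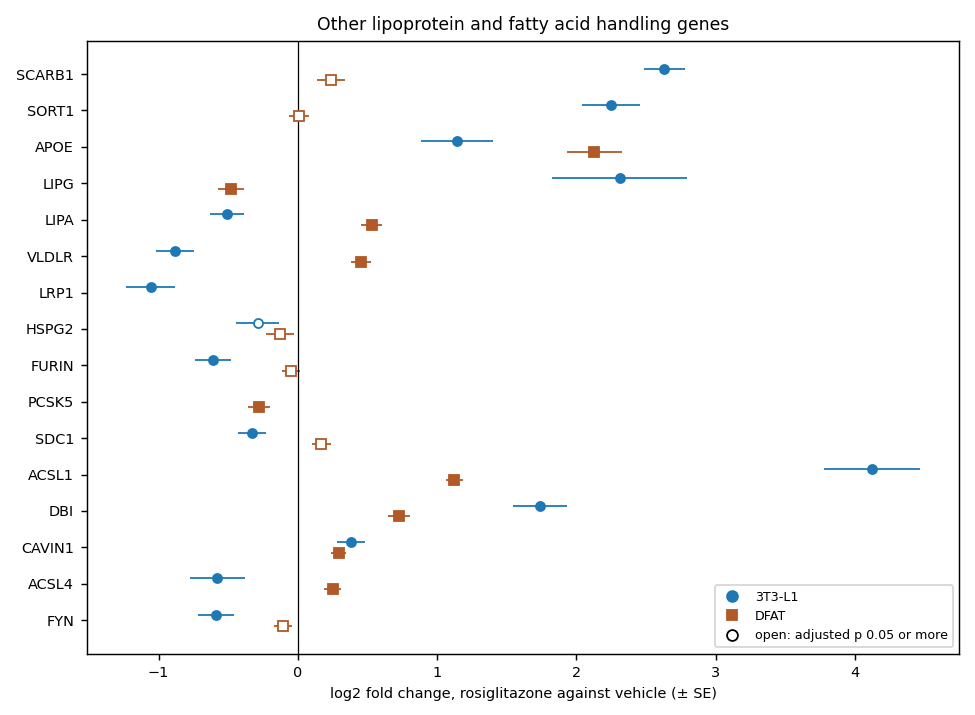
Log2 fold change with rosiglitazone against vehicle on the log2(normalized count + 1) scale (horizontal axis, ± limma's SE) for named genes of lipoprotein and fatty acid handling (vertical axis) in 3T3-L1 (circles) and DFAT cells (squares). Filled points passed an adjusted p of 0.05, and a missing point means that the gene was not tested or not listed. APOE, ACSL1, DBI and CAVIN1 are to the right in both systems, while LIPG, LIPA, VLDLR and ACSL4 lie on opposite sides. Mouse Lipg passed the minimum mean only through its treated libraries, which favours a rise.

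The genes most like each lead member over the 15 libraries of a system, all of which share the rosiglitazone step, were looked up by Pearson correlation of log2 values, given as a description. In 3T3-L1 cells Lpl was followed most closely by Fcor (r = 0.993), Mcts2 (0.988) and Pla2g12a (0.988), Cd36 by Kcnk3 (0.992), Slc5a6 (0.992) and Lipe (0.990), and Angptl4 by Ldhb (0.988), Cib2 (0.987) and Atad3a (0.987). In DFAT cells LPL was followed by ELOVL6 (0.989), SMG1 (0.978) and MGST1 (0.973), CD36 by FABP3 (0.993), SGK2 (0.990) and THRSP (0.989), and ANGPTL4 by ADAMTS4 (0.989), GK (0.974) and SLC6A6 (0.957). FABP3, itself one of the 10 genes, was thus the closest companion of CD36 in the pig cells.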

How the data were processed

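Libraries were stranded poly(A) RNA-seq (dUTP method) of 15 3T3-L1 and 15 DFAT samples, per the labels' protocols. The signal values are, per the labels, gene counts that the authors divided by DESeq2 size factors and deposited as a mouse and a pig table. The submitters' processing notes name bcl2fastq 2.19.1.403, STAR, DESeq2 and the mouse build GRCm38 without a role. Of 24843 mouse genes, 24070 matched GENCODE by identifier, 95.5% with the same length but 2.18% with the same start, so the build of the tables is not given in the sources used here and their coordinates are not printed. Whole reads could not be recovered (81.6% to 82.7% of low 3T3-L1 values and 89.7% to 91.0% of low DFAT values were whole), so count tests were not run. The number of reads behind a value was estimated from the same steps, with size factors of 0.810 to 1.17 and 0.780 to 1.18, and that number limits the precision of low values.

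Genes with a mean of at least 10 (15723 mouse, 14819 pig) entered a limma model (3.58.1, R 4.3.3) of log2(value + 1) with all 5 groups and a variance trend. Tests were two-sided, and p-values were adjusted by Benjamini-Hochberg over all tested genes, with a threshold of 0.05. The fit was also run on simulated counts drawn without any replicate effect, unlike the 3T3-L1 data, and no result given here rests on that run. Tables were scaled separately, so nothing was tested across systems. In 3T3-L1 the replicate numbers pair the libraries (all 30 same-number pairs of deviations from group means correlated at 0.106 or more, other numbers at a median of −0.142). Among the DFAT comparisons made here they do so for the combination against magnolol (0.118 to 0.345) and rosiglitazone against the combination (0.105 to 0.288). Same-number DFAT libraries of magnolol and rosiglitazone, which were not compared, also correlated (0.144, 0.267 and 0.268). Alternatives were a pseudocount of 10, a minimum mean of 100 or none, no variance trend, quantile normalization, the compared groups alone, a replicate block and each library left out.

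Members and gene lists were chosen with earlier results of these data known. All 10 members are named, and from the other pathway lists, per comparison with vehicle, up to 3 called genes per direction with the largest change and a mean of at least 100 could be named. Most-alike genes were the 3 with the highest r among genes with a symbol and that mean. Shared stretches of 50 bases were counted in GENCODE mouse transcripts and promoter windows were taken from RefSeq. Marker lists for preadipocytes, macrophages and leukocytes were also read. In 3T3-L1 the 8 preadipocyte and fibroblast markers summed to 237082 to 262258 (vehicle), 202669 to 238536 (dicoumarol), 194962 to 234259 (magnolol), 178192 to 210581 (combination) and 138390 to 180096 (rosiglitazone), where 0 rose and 7 fell (20.3% of all genes were called higher and 19.9% lower). In DFAT cells, where 6 of the 8 were listed and 5 tested, the sums in that order were 1581910 to 1734160, 2218803 to 2315938, 2529965 to 2898122, 2521494 to 2997214 and 1233594 to 1371930, so they were above vehicle under every treatment but rosiglitazone. There 1, 2, 2 and 0 rose and 1 fell in each comparison with vehicle. Of all genes, 0.911%, 2.96%, 6.11% and 5.8% were called higher and 1.03%, 1.27%, 4.06% and 5.02% lower in the same order. Macrophage and leukocyte markers summed to 252 to 290, 217 to 240.5, 203 to 233, 201 to 218 and 130 to 185 in 3T3-L1 and, over all 15 libraries, to 675 to 1040.3 in DFAT cells. Their part in the results was not tested. In 3T3-L1 the skeletal muscle markers summed to 67.5 to 121. Tables were handled with Python 3.11.15, numpy 2.4.6 and pandas 2.3.3, and plots with matplotlib 3.10.9.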

Additional observations from a re-analysis of the deposited data

Results flagged for a closer look

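For 12 pairs of changes, every treated library of one system lay on one side of its vehicle mean and every treated library of the other system on the other side. Only the genes of the set and the other pathway genes named by the rule above were scanned. The other pathway genes were named for a called change, so the change on one side of a pair could be selected in advance. The share of all genes that meet this condition was not counted, so the 12 cannot be set against a background. None of these differences was tested, since the tables were scaled separately, and several of the changes are small and passed no test of their own. With dicoumarol, Angptl4 changed by 0.69 (log2) in 3T3-L1 and by −0.14 in DFAT cells.

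Lipg, endothelial lipase, lay above vehicle in 3T3-L1 and below it in DFAT cells under all 4 treatments, by 0.57 and −0.25 with dicoumarol, 1.74 and −0.31 with magnolol, 1.70 and −0.35 with the combination, and 2.31 and −0.48 with rosiglitazone (log2), from a mouse level near that of a few reads. Mouse Lipg passed the minimum mean only through its treated libraries, which favours a rise, so its pairs lend no support to a difference between the systems. Lipa, lysosomal acid lipase, changed by −0.11 in 3T3-L1 and 0.26 in DFAT cells with the combination and by −0.51 and 0.53 with rosiglitazone. For the receptor gene Vldlr the log2 fold changes in 3T3-L1 and DFAT cells were −0.10 and 0.029 with dicoumarol, −0.14 and 0.34 with the combination, and −0.88 and 0.45 with rosiglitazone. With rosiglitazone Sdc1 changed by −0.33 and 0.17, and Acsl4 by −0.58 and 0.25.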

How the results depend on the processing

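Precision was limited by 3 libraries per group and, for Gpihbp1 and mouse Fabp3, by a few reads. No gene of the set with a call changed direction under any alternative run. With quantile normalization the 3T3-L1 comparison of the combination with dicoumarol called 1 of the 8 tested genes (0 in the fit used). With the replicate block, which pairs the 3T3-L1 libraries, dicoumarol against vehicle called 4 and the combination against dicoumarol 5 (0 in the fit used for both). In DFAT cells the combination against magnolol called 2 without the filter on low values, 3 with the compared groups alone, 4 without the variance trend and 6 with the block (5 in the fit used). Rosiglitazone against the combination there called 3 without the filter, 4 without the variance trend, 5 with the compared groups alone and 7 with the block (6 in the fit used). With the block the DFAT interaction called 1, ANGPTL4 (limma adjusted p 0.0210), although the numbers are not shown to pair those libraries. Leaving out 1 library gave 1 to 4 calls for magnolol against vehicle in 3T3-L1 (1 without magnolol replicate 1), 0 to 1 for the combination against dicoumarol there, 3 to 6 for rosiglitazone against the combination there (3 without rosiglitazone replicate 1), and 3 to 5 for the combination against magnolol in DFAT cells. Over single named genes, an alternative ended a call 142 times and a call appeared 16 times. The cause was not tested.

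Counts over all genes moved with the same alternatives. In 3T3-L1 cells, apart from leaving out libraries, they ran from 0 to 79 for dicoumarol (0 in the fit used), 80 to 780 for magnolol (193), 612 to 2124 for the combination (821), 4643 to 7827 for rosiglitazone (6312), 0 to 569 for the combination against dicoumarol (4) and 1465 to 5234 for rosiglitazone against the combination (2879), and in DFAT cells from 136 to 670 (288), 347 to 1360 (626), 977 to 2643 (1508), 936 to 2368 (1604), 176 to 893 (348) and 1336 to 3697 (2523), with 28 to 290 (92) for the combination against magnolol and 5 to 34 (12) for the interaction. The highest value of each came with the replicate block. Leaving out a library gave 22 to 135 for magnolol and 286 to 726 for the combination in 3T3-L1.

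Sign changes occurred for changes that had no call. With quantile normalization Lmf1 with the combination in 3T3-L1 went to −0.0218 from 0.01, LMF1 with dicoumarol in DFAT cells to 0.0013 from −0.0026, and SLC27A1 with dicoumarol there to −0.0558 from 0.0010. Leaving out libraries gave, in 3T3-L1 against vehicle, −0.02 to 0.216 for Lmf1 with dicoumarol, −0.0333 to 0.254 for Slc27a4 with dicoumarol, −0.131 to 0.105 for Lmf1 with magnolol, −0.0532 to 0.217 for Slc27a4 with magnolol and −0.111 to 0.126 for Lmf1 with the combination. The interaction there gave −0.318 to 0.0501 for Lpl, −0.196 to 0.0403 for Lmf1 and −0.167 to 0.12 for Slc27a4. The combination against dicoumarol gave −0.0125 to 0.219 for Slc27a1 and −0.0678 to 0.152 for Slc27a4, and against magnolol −0.0589 to 0.0687 for Lmf1, −0.133 to 0.719 for Cd36 and −0.161 to 0.0701 for Slc27a1. In DFAT cells against vehicle the ranges were −0.113 to 0.0799 for LMF1, −0.145 to 0.132 for SLC27A1 and −0.0424 to 0.136 for SLC27A4 with dicoumarol, −0.0983 to 0.168 for ANGPTL4, −0.0414 to 0.152 for LMF1 and −0.119 to 0.135 for SLC27A4 with magnolol, −0.128 to 0.0914 for LMF1 and −0.213 to 0.0507 for SLC27A4 with the combination, and −0.171 to 0.0216 for LMF1 and −0.0287 to 0.199 for SLC27A4 with rosiglitazone. The DFAT interaction gave −0.167 to 0.0262 for LMF1 and −0.154 to 0.009 for FABP3. There the combination gave −0.0798 to 0.094 for LMF1 against dicoumarol, −0.151 to 0.0223 for LMF1 and −0.239 to 0.0609 for SLC27A4 against magnolol, and rosiglitazone against the combination −0.152 to 0.0215 for LMF1.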
